A study of Mus musculus with 6 samples.

Results

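The Wnt target and feedback genes described here are Axin2, Lef1, Tcf7, Nkd1, Nkd2, Rnf43, Znrf3, Notum, Sp5 and Lgr5, which were taken by gene symbol as a panel of genes that β-catenin signaling is known to induce. All 10 were among the 23420 gene symbols in the count tables, and 9 had enough reads to be tested. The tables came from RNA-seq of lacrimal gland epithelium micro-dissected by laser capture at E14.5, all on a mixed background. There were 3 Control samples, titled WT in the sample labels and given as Le-Cre in the paper's results. The paper's methods name as controls both Le-Cre mice and Le-Cre mice heterozygous for the Pea3, Erm and Er81 alleles. The 3 Pea3 TKO samples came from Pea3-/- embryos that carried Le-cre together with the Ermfl/fl and Er81fl/fl alleles. By the paper's account both groups thus carried the Le-Cre transgene, which drives Cre recombinase in the conjunctival and lacrimal gland epithelium. In Pea3 TKO, Erm (Etv5) and Er81 (Etv1) were conditionally deleted in that epithelium while the whole embryo was null for Pea3 (Etv4). Whether the samples of a group came from separate embryos, and how many embryos each held, is not given in the sources used here, and p-values therefore measure the spread between these samples.

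In canonical Wnt signaling, Wnt ligands bind Frizzled and Lrp receptors and disable the complex that degrades β-catenin, which then accumulates and switches on target genes together with the DNA-binding proteins of the Tcf/Lef family. Many of these targets encode inhibitors that act back on the pathway at different levels, and their transcripts are commonly used as a read-out of β-catenin activity. In the lacrimal gland, canonical Wnt signaling is known to restrain the budding and branching that FGF10 promotes.

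Sp5 and Lef1 were higher in Pea3 TKO, Nkd2 and Nkd1 were lower, and Axin2, a widely used read-out of the pathway, was not called. The 250 bases before the start sites of Sp5, Nkd1, Nkd2 and Axin2 are shown for these reasons, together with an intronic start site of Lef1. They are RefSeq promoter windows on GRCm38.p6, read 5′ to 3′ on the strand of the gene. Capitals mark CTTTGA, the core of a Tcf/Lef site, and GGAAGT, a core bound by ETS factors such as the Pea3 family, each searched on both strands (a match on the other strand reads TCAAAG or ACTTCC).
Sp5, chr2:70474673-70474922, plus strand: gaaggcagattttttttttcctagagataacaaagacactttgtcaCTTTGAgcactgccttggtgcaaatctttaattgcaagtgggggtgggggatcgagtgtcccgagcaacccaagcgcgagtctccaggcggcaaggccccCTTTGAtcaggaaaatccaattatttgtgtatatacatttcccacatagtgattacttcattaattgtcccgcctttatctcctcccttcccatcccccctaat
Lef1, chr3:131156044-131156293, plus strand: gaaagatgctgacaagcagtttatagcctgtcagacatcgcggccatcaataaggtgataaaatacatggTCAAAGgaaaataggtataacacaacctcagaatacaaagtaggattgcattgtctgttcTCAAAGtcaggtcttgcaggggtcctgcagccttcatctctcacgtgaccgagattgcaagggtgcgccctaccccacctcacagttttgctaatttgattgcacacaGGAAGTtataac
Nkd1, chr8:88527383-88527632, plus strand: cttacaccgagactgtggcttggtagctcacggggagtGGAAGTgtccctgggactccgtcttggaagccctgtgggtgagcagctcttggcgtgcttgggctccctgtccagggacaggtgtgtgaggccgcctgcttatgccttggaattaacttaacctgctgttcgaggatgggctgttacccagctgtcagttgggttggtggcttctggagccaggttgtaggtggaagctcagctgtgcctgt
Nkd2, chr13:73847632-73847881, minus strand: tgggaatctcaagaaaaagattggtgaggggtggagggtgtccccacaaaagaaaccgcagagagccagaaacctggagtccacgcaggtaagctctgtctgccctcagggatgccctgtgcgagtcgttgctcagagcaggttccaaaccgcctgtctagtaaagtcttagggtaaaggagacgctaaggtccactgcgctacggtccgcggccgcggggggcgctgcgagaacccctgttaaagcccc
Axin2, chr11:108920099-108920348, plus strand: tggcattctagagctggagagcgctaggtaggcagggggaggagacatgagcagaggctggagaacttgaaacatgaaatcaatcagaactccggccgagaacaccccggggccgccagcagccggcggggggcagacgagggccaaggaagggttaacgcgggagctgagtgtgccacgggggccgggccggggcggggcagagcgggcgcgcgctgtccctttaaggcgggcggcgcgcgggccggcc
The Sp5 window held 2 copies of CTTTGA, which began 204 and 104 bases before the start site, and no GGAAGT. The Lef1 window, which lies inside the gene, held 2 copies of CTTTGA on the other strand and 1 GGAAGT. The other 3 Lef1 windows held neither. The Nkd1 window, which also lies inside the gene as GENCODE annotates it, held 1 GGAAGT, 212 bases before the start site, and the Nkd2 and Axin2 windows held neither motif. Entries were found for 7 of the 10 genes, with 12 windows in all, of which 2 held CTTTGA and 3 held GGAAGT. Among all 32851 promoter windows of this length, 13.8% held CTTTGA and 19.7% held GGAAGT. These matches describe the letters in these windows and were not tested for binding.

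Libraries held between 14194775 and 17860140 counts, and levels are given as CPM, counts scaled to 1e6 per library after TMM adjustment. At this depth 3 counts corresponded to between 0.169 and 0.21 CPM. Etv4, Etv5 and Etv1, the targeted genes, were each lower in all 3 Pea3 TKO libraries than in any Control library. Some transcript of each remained in Pea3 TKO, with Etv4 at 10.9, 19.1 and 28.4 CPM and Etv1 at 9.21, 9.37 and 9.98 CPM. Summed over Etv4, Etv5 and Etv1, Control libraries held between 1170 and 1370 CPM and Pea3 TKO libraries between 108 and 215 CPM. The 7 epithelial bud markers summed to between 3370 and 4160 CPM in Control libraries and to between 5140 and 5960 CPM in Pea3 TKO libraries. Of these, Cdh1, Pax6, Krt8 and Krt18 were called higher in Pea3 TKO, Sox9 and Sox10 were called lower, and Epcam was not called. Endothelial markers summed to at most 3.51 CPM, muscle markers to at most 4.36 CPM, and melanocyte and Schwann cell markers to at most 7.2 CPM. Blood and immune markers summed to between 37.7 and 204 CPM, of which the globin gene Hbb-y made up most in every library. The highest sum was in Pea3 TKO replicate 3, where Hbb-y was at 204 CPM and the immune markers Ptprc, Csf1r, Tyrobp and Cx3cr1 were at 0. The lens genes Cryaa and Cryba1 were at 593 and 205 CPM in Control replicate 2 and at no more than 166 and 65.9 CPM in any other library. The Pea3 TKO libraries did not stand together on every marker. Y-linked genes (Ddx3y, Eif2s3y, Kdm5d and Uty) summed to between 136 and 175 CPM in Control libraries and to 139 CPM in Pea3 TKO replicate 3, but to 0.445 and 0.21 CPM in Pea3 TKO replicates 1 and 2. The same replicates 1 and 2 held the most transcript of the collagen genes Col1a1, Col1a2 and Col3a1. Col1a1 was there at 54.5 and 70.8 CPM, against 1.23 CPM in Pea3 TKO replicate 3 and between 1.86 and 18.9 CPM in Control libraries. In bulk samples such as these, more cells of a type and more RNA per cell cannot be told apart.

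Of the 9 tested members, 2 passed an adjusted p of 0.05 in the higher direction and 2 in the lower direction by the edgeR quasi-likelihood test. Of all 13087 genes tested, 25.0% were called, 13.6% higher and 11.3% lower. The median log2 fold change of the 9 members was -0.28, and that of all tested genes was 0.0094. Sp5 and Lef1 passed the low-count filter through their Pea3 TKO libraries, since only 1 Control library reached its cutoff for either gene, so these member counts describe the panel and do not support a shift. In 3 of the 9 members every Pea3 TKO library was above every Control library and in 4 every one was below, against 22.5% and 21.3% of all tested genes. Sp5 and Lef1 were among the 3 above, so these counts too only describe the panel. Without any low-count filter all 10 members could be tested, and 2 were again called in each direction. Summed over the panel, transcript levels fell between 209 and 239 CPM in Control libraries and between 106 and 134 CPM in Pea3 TKO libraries. Without Nkd2 the ranges overlapped, from 97 to 112 CPM in Control libraries and from 90.1 to 109 CPM in Pea3 TKO libraries.

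**Figure D1:**
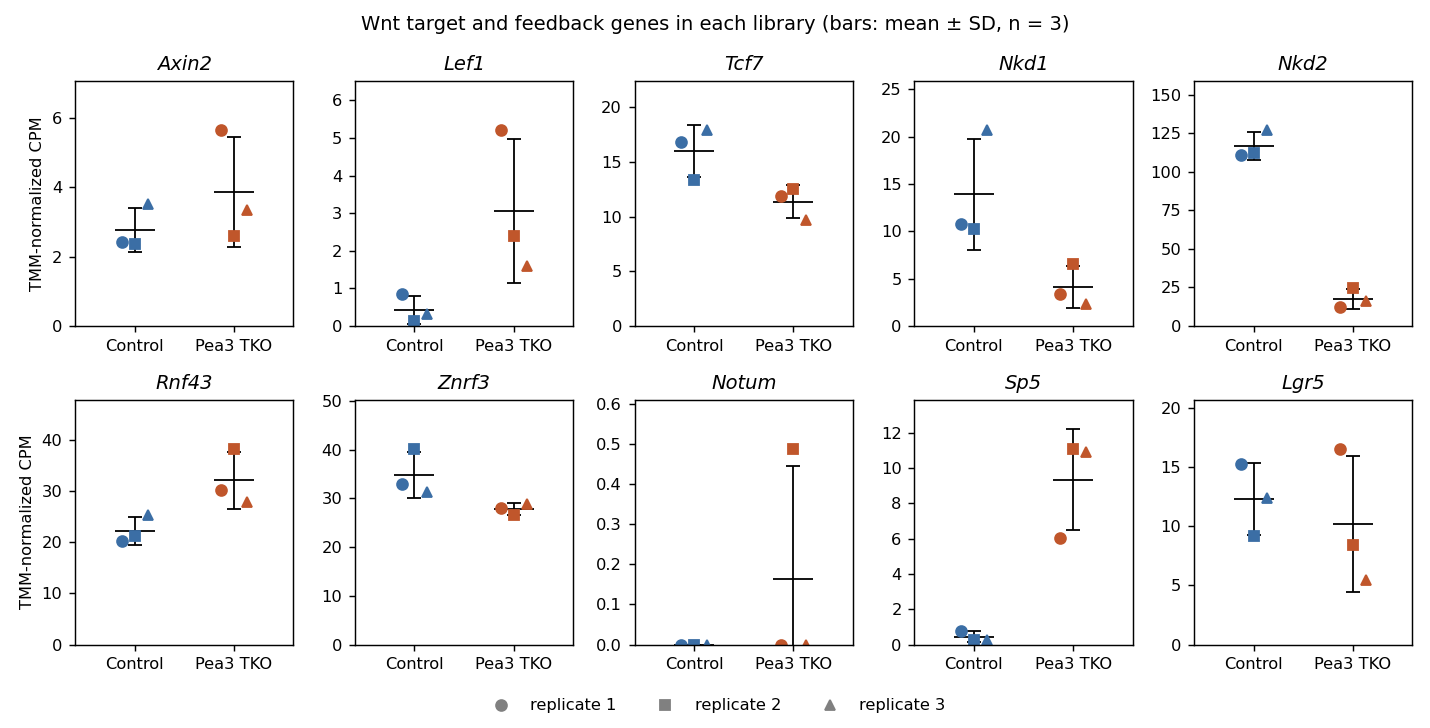
TMM-normalized CPM (vertical axis, linear, 1 scale per gene) of the 10 Wnt target and feedback genes in the 3 Control and 3 Pea3 TKO libraries, with each replicate as a point and the mean ± SD as bars. Nkd2 ran from 111 to 127 CPM in Control and from 12.1 to 24.7 CPM in Pea3 TKO, whereas Sp5 ran from 0.249 to 0.789 and from 6.03 to 11.1 CPM.

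The Naked cuticle genes fell together. Nkd1 and Nkd2 encode cytoplasmic proteins that bind Dishevelled and dampen the signal that passes from the Wnt receptors. Nkd2 lies on chromosome 13 from 73818534 to 73847631 (positions here and below are those of GENCODE M21 on GRCm38). Its level was 111, 112 and 127 CPM in Control replicates 1 to 3 and 12.1, 24.7 and 16.2 CPM in Pea3 TKO replicates 1 to 3. The highest mutant library was thus far under the lowest Control library. The log2 fold change was -2.73 (SE 0.24, adjusted p = 9.6e-05), which is 6.61-fold lower. Nkd1, on chromosome 8 from 88521354 to 88594884, was at 10.8, 10.2 and 20.7 CPM in Control and at 3.37, 6.57 and 2.29 CPM in Pea3 TKO. The groups did not overlap, although Control replicate 3 stood well above the other Control libraries. Its log2 fold change was -1.77 (SE 0.46, adjusted p = 0.02). The call for Nkd1 was lost without Control replicate 3 (adjusted p = 0.094) and without Pea3 TKO replicate 1 (adjusted p = 0.07), whereas Nkd2 passed in every fit without 1 library. The ratio of Nkd2 to Nkd1 within a library was 10.3, 11 and 6.13 in Control and 3.6, 3.76 and 7.08 in Pea3 TKO. These ratios overlapped, with a log2 difference of -0.95 (two-sided exact permutation p = 0.2, adjusted p = 0.2 over 3 ratios).

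Sp5 changed most among the members. It encodes a zinc-finger factor of the Sp family that is a direct target of β-catenin and represses other targets. Sp5 lies on chromosome 2 from 70474923 to 70477729 and was nearly silent in Control, at 0.789, 0.249 and 0.26 CPM (14, 4 and 4 counts). In Pea3 TKO it reached 6.03, 11.1 and 10.9 CPM (95, 159 and 186 counts). Every mutant library was above every Control library by several fold. The log2 fold change was 4.39 (SE 0.6, 95% confidence interval 3.06 to 5.72, adjusted p = 0.00099), or 21-fold on few Control reads. The window before the start site of Sp5, printed above, held 2 copies of the Tcf/Lef core, which 13.8% of all promoter windows held. Any part of these copies in the rise was not tested.

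Lef1 and Tcf7 encode HMG-box proteins that carry β-catenin to target genes. They differed in direction. Lef1, on chromosome 3 from 131110471 to 131224356, was at 0.846, 0.125 and 0.325 CPM in Control (15, 2 and 5 counts) and at 5.21, 2.38 and 1.59 CPM in Pea3 TKO (82, 34 and 27 counts). All 3 mutant libraries were above all Control libraries, with the highest value in Pea3 TKO replicate 1. The log2 fold change was 2.79 (SE 0.86, 95% confidence interval 0.87 to 4.71, adjusted p = 0.04). The call for Lef1 was not kept without Control replicate 2 (adjusted p = 0.11), Control replicate 3 (adjusted p = 0.12), Pea3 TKO replicate 1 (adjusted p = 0.16) or Pea3 TKO replicate 2 (adjusted p = 0.074). Tcf7, on chromosome 11 from 52252371 to 52283014, was at 16.8, 13.3 and 17.9 CPM in Control and at 11.9, 12.5 and 9.69 CPM in Pea3 TKO. The mutant libraries were all lower, but by less than the test required (log2 fold change -0.49, 95% confidence interval -1.04 to 0.05, adjusted p = 0.17). The ratio of Lef1 to Tcf7 is not given, because Lef1 had only 2 counts in Control replicate 2. An antisense transcript in GENCODE, Gm43352, shares 13.7% of the exonic length of Lef1 and is not among the symbols in the count tables. The sources used here do not say whether reads were counted by strand.

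**Figure D2:**
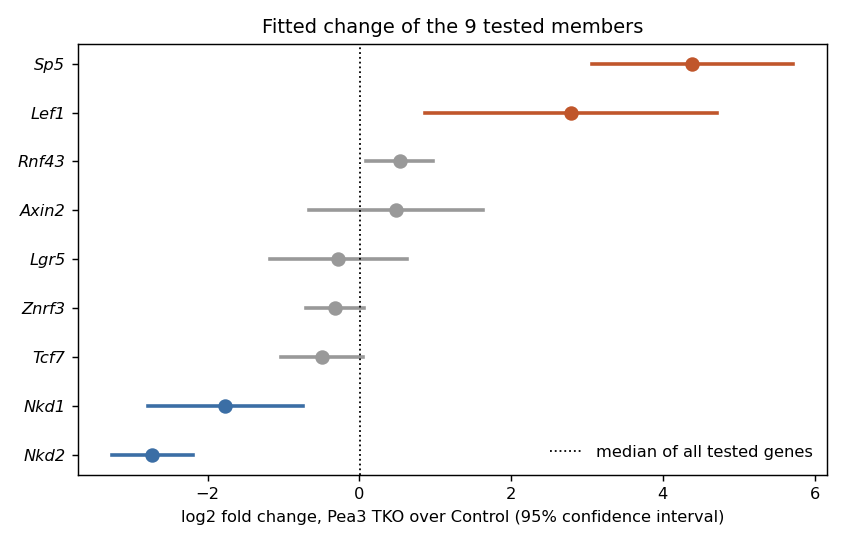
Log2 fold change of Pea3 TKO over Control (horizontal axis) with its 95% confidence interval for the 9 tested members, in color where the adjusted p was under 0.05 and in grey otherwise. Sp5 (4.39) and Lef1 (2.79) lie to the right and Nkd1 (-1.77) and Nkd2 (-2.73) to the left of the dotted line at the median of all tested genes (0.0094).

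Transcripts of most epidermal markers rose beside Sp5 and Lef1. Of 12 epidermal markers, 10 were tested and 9 were called higher, against 13.6% of all genes tested. The paper had already reported a rise of many keratin genes from these same libraries, and of Krt5, Krt14 and Sfn in tissue sections. This count therefore describes the list and is no independent support. Dsg3 passed the low-count filter only through its Pea3 TKO libraries. The 12 markers summed to between 568 and 1630 CPM in Control libraries and between 5290 and 7550 CPM in Pea3 TKO libraries. Krt15 and Krt5 were the largest parts in Pea3 TKO, at 4360 and 1850 CPM in replicate 1. By the paper's account Krt5 and Sfn are also present in the conjunctival epithelium, so these markers are not particular to epidermis. Trp63 was not called (log2 fold change -0.04, adjusted p = 0.92 by the edgeR test). Ivl was at 1.33 CPM in Pea3 TKO replicate 1 and at or near 0 elsewhere. Of 14 mesenchymal markers, 13 were tested, of which 2 were called higher (Dcn and Lum) and 1 lower (Fbn1), against 13.6% and 11.3% of all genes. The 14 markers summed to between 314 and 449 CPM in Control libraries and to 733, 911 and 314 CPM in Pea3 TKO replicates 1 to 3. Most of this sum in Control libraries and in Pea3 TKO replicate 3 was Foxc1 and Fbn1, at 259 and 39.2 CPM in the latter. Dcn and Lum overlapped between the groups, at 2.41 and 2.06 CPM in Pea3 TKO replicate 3 against up to 4.42 and 8.39 CPM in Control. Thy1 was at or near 0 throughout. The part of these cell types in the levels of Sp5 and Lef1 was not tested.

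**Figure D3:**
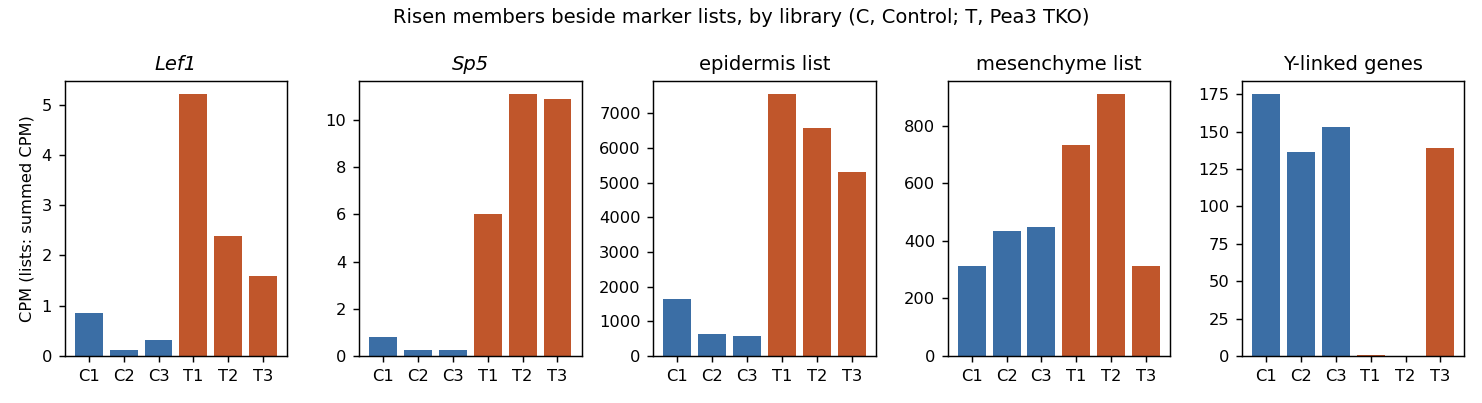
CPM of Lef1 and Sp5 and summed CPM of the epidermal, mesenchymal and Y-linked lists (vertical axes, linear from 0) in Control replicates 1 to 3 (C1 to C3) and Pea3 TKO replicates 1 to 3 (T1 to T3). The epidermal sum was above Control in all 3 mutant libraries, the mesenchymal sum in T1 and T2, and Y-linked genes were near 0 in T1 and T2 alone.

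Y-linked transcripts were present in all Control libraries and in Pea3 TKO replicate 3 and near 0 in Pea3 TKO replicates 1 and 2. All 10 members are autosomal. With the Y-linked level as a covariate, Nkd2 (log2 fold change -2.87, adjusted p = 0.0051) and Sp5 (4.64, adjusted p = 0.0084) still passed. Lef1 (1.88, adjusted p = 0.4) and Nkd1 (-2.64, adjusted p = 0.064) did not, while the calls over all genes fell from 1783 to 492 higher and from 1485 to 286 lower. With Pea3 TKO replicate 3 alone against the Control libraries, which leaves no spread among mutants to measure and assumes that it varies like the Control samples, the values were -2.84 for Nkd2 (adjusted p = 0.0025) and 4.63 for Sp5 (adjusted p = 0.032). The same comparison gave 1.86 for Lef1 (adjusted p = 0.46) and -2.59 for Nkd1 (adjusted p = 0.071).

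The membrane ubiquitin ligases did not pass the test. Rnf43 and Znrf3 encode E3 ligases that remove Frizzled and Lrp receptors from the cell surface. Rnf43, on chromosome 11 from 87662722 to 87735539, was at 20.3, 21.2 and 25.4 CPM in Control and at 30.2, 38.4 and 27.9 CPM in Pea3 TKO. All mutant libraries were higher, yet the adjusted p was 0.078 (log2 fold change 0.53, 95% confidence interval 0.09 to 0.97). Znrf3, on chromosome 11 from 5276324 to 5444847, was at 32.9, 40.2 and 31.3 CPM in Control and at 27.9, 26.6 and 28.9 CPM in Pea3 TKO. All mutant libraries were lower, with a log2 fold change of -0.32 (95% confidence interval -0.7 to 0.06, adjusted p = 0.2). The ratio of Rnf43 to Znrf3 was 0.617, 0.529 and 0.813 in Control and 1.08, 1.44 and 0.965 in Pea3 TKO. These ratios did not overlap, and their log2 difference was 0.84 (two-sided exact permutation p = 0.1, the smallest that 3 samples against 3 allow, adjusted p = 0.15 over 3 ratios).

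Axin2, which encodes a scaffold of the complex that degrades β-catenin, was low in both groups. It lies on chromosome 11 from 108920349 to 108950783 and was at 2.42, 2.37 and 3.51 CPM in Control and at 5.65, 2.59 and 3.35 CPM in Pea3 TKO. The groups overlapped, and the higher mutant mean rested on Pea3 TKO replicate 1. The log2 fold change was 0.48 (95% confidence interval -0.66 to 1.63, adjusted p = 0.54). An antisense transcript, Gm11670, shares 3.8% of the exonic length of Axin2. Among all tested genes, Frrs1, Zc3h6 and Eml6 had the highest correlation with Axin2 over the 6 libraries (Pearson r of 0.989, 0.987 and 0.984 on log2(CPM + 1)). Their levels were not alike, since Frrs1 ran from 50.8 to 60.9 CPM. Eml6 had 0, 3 and 19 counts in Control and 79, 0 and 12 counts in Pea3 TKO. Without Pea3 TKO replicate 1, which was the highest library for Axin2, Frrs1, Zc3h6 and Eml6, r was 0.952, 0.952 and 0.927. These correlations share libraries and are over few points. The genes were picked as the highest of 13087 tested genes in these same libraries, so neither set of r values supports a link to Axin2.

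Lgr5 encodes a receptor for R-spondins and marks stem cells in several epithelia. On chromosome 10 from 115450311 to 115587780, it was at 15.3, 9.22 and 12.4 CPM in Control and at 16.6, 8.46 and 5.46 CPM in Pea3 TKO. The groups overlapped (log2 fold change -0.28, 95% confidence interval -1.18 to 0.63, adjusted p = 0.66), and Pea3 TKO replicate 3 was the lowest library. Without that library the log2 fold change was 0.03. Notum encodes a secreted enzyme that inactivates Wnt ligands by removing their lipid. It lies on chromosome 11 from 120653788 to 120661175 and had no read in 5 libraries, which allows up to 3 counts, or 0.169 to 0.195 CPM in the Control libraries. Pea3 TKO replicate 2 held 7 counts (0.489 CPM), and no test was made. The antisense transcripts Notumos and Myadml2os share 29.4% and 8.72% of the exonic length of Notum, and whether reads were counted by strand is not given.

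Per exonic length the order of the members changed between the groups. RPKM, the CPM divided by the annotated exonic length in kilobases, was highest for Nkd2 in Control (24.2 ± 1.79, SD, n = 3). Tcf7 (6.11 ± 0.915) and Znrf3 (4.41 ± 0.603) followed and overlapped, as did Rnf43 (3.4 ± 0.416) and Nkd1 (3.05 ± 1.29). Lgr5 (1.2 ± 0.298), Axin2 (0.503 ± 0.117), Sp5 (0.206 ± 0.147) and Lef1 (0.0491 ± 0.0423) came next without overlap between neighbors. In Pea3 TKO, Rnf43 (4.91 ± 0.84), Sp5 (4.46 ± 1.37), Tcf7 (4.34 ± 0.569), Nkd2 (3.66 ± 1.33) and Znrf3 (3.52 ± 0.148) formed a run in which each overlapped the next. Below a gap, Lgr5 (0.992 ± 0.564), Nkd1 (0.894 ± 0.489), Axin2 (0.701 ± 0.29) and Lef1 (0.348 ± 0.217) formed a lower run of the same kind. Nkd2 thus went from the highest level, apart from all others, into the range of Tcf7 and Znrf3, and Sp5 entered that range from below Axin2.

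**Figure D4:**
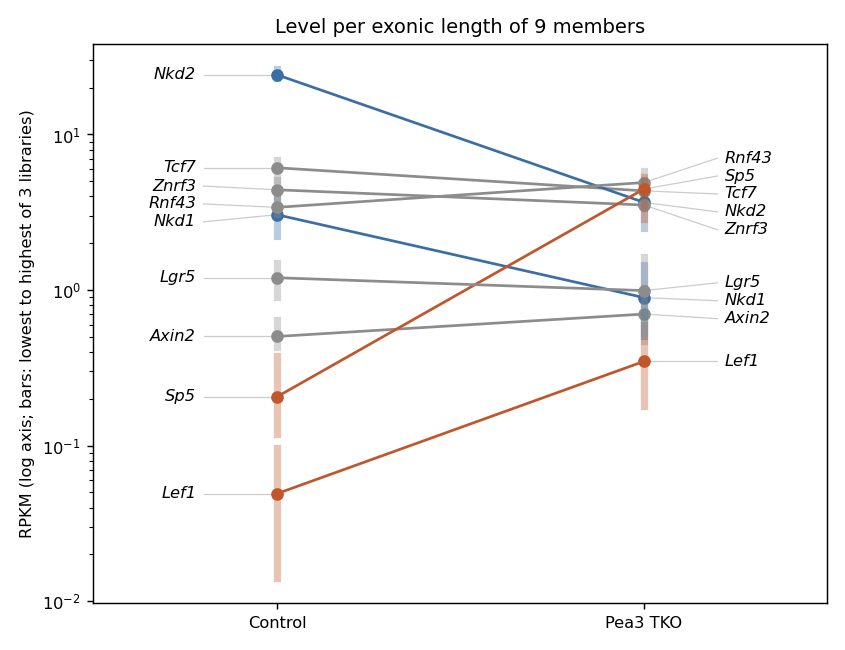
RPKM (vertical axis, log scale) of 9 members in Control and Pea3 TKO, with the mean of 3 libraries as points, the lowest to highest library as pale bars and called genes in color. By mean, Nkd2 falls from 24.2 to 3.66 RPKM and Sp5 rises from 0.206 to 4.46 RPKM. The Axin2 means are 0.503 and 0.701 RPKM, with libraries from 0.43 to 0.638 in Control and from 0.47 to 1.03 in Pea3 TKO. Notum is left out because its Control level was 0.

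R-spondins release the brake set by Rnf43 and Znrf3 through the receptors Lgr4, Lgr5 and Lgr6. Of the 6 other R-spondin and Lgr genes, 3 were tested, 1 was called higher and 0 lower by edgeR, against 13.6% and 11.3% of all genes. With 3 genes tested, these counts are too few to set against those shares. The number lower was also 0 by DESeq2, by the exact test and at an unadjusted p under 0.05. Lgr6 was at 1.18, 1.18 and 0.195 CPM in Control and at 3.11, 11.5 and 11.5 CPM in Pea3 TKO. The groups did not overlap, and the log2 fold change was 3.33 (SE 0.73, adjusted p = 0.01). Lgr6 passed the low-count filter only through its Pea3 TKO libraries. Lgr4 was at 30.4, 69.2 and 77.3 CPM in Control and at 29.8, 30.3 and 78.9 CPM in Pea3 TKO. Its groups overlapped entirely (log2 fold change -0.34, 95% confidence interval -1.28 to 0.59, adjusted p = 0.59). Rspo1 was low, between 0.113 and 1.5 CPM in Control and between 1.14 and 4.89 CPM in Pea3 TKO (adjusted p = 0.2). Rspo2 was at 1.41 CPM in Control replicate 1 and at 0 elsewhere. Rspo3 had a trace in Pea3 TKO replicate 1 alone (0.0635 CPM), and Rspo4 was at 0 in all libraries.

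Of the 30 genes that carry the signal from receptor to nucleus, all were tested, and 1 was called higher and 2 lower, against 13.6% and 11.3% of all genes. Their median log2 fold change was 0.02. Ctnnb1, which encodes β-catenin itself, was at 1360, 1550 and 1510 CPM in Control and at 1560, 1760 and 1720 CPM in Pea3 TKO (log2 fold change 0.19, 95% confidence interval -0.06 to 0.44, adjusted p = 0.26). Of the other Tcf genes, Tcf7l1 had a log2 fold change of 0.12 (adjusted p = 0.64) and Tcf7l2 of 0.31 (adjusted p = 0.14). The called genes encode inhibitors. Groucho corepressors turn Tcf factors into repressors, and Tle4 rose from 97.5, 93.2 and 116 CPM to 140, 165 and 154 CPM (log2 fold change 0.58, SE 0.13, adjusted p = 0.0099). Tle3, of the same family, fell from 49, 14.2 and 33.4 CPM to 12.2, 6.15 and 10.8 CPM (log2 fold change -1.73, SE 0.42, adjusted p = 0.017), a call lost without Pea3 TKO replicate 2 (adjusted p = 0.064). Ctnnbip1, which keeps β-catenin from binding Tcf factors, fell from 117, 105 and 93 CPM to 59.9, 74.3 and 74.1 CPM (log2 fold change -0.6, SE 0.14, adjusted p = 0.015). Without Control replicate 2 its adjusted p was 0.05, at the threshold, and it was not called. Pygo1 (log2 fold change -0.89, adjusted p = 0.084), Apc2 (2.07, adjusted p = 0.087) and Bcl9l (0.83, adjusted p = 0.12) had no overlap between the groups and did not pass. Pygo1 passed without Pea3 TKO replicate 2 (log2 fold change -1.29, adjusted p = 0.028), and Apc2 passed by DESeq2 (adjusted p = 0.044). With the Y-linked covariate Tle4 (log2 fold change 0.58, adjusted p = 0.11), Tle3 (-1.5, adjusted p = 0.26) and Ctnnbip1 (-0.5, adjusted p = 0.23) did not pass.

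A wider list of 24 genes reported as Wnt targets in other tissues moved in both directions. Of 17 tested, 5 were called higher and 4 lower, against 13.6% and 11.3% of all genes, and their median log2 fold change was 0.43. Ccnd1, which encodes cyclin D1, rose from 164, 426 and 188 CPM to 571, 630 and 1030 CPM (log2 fold change 1.52, SE 0.35, adjusted p = 0.013). Myc, often named beside it as a target, fell from 267, 247 and 234 CPM to 102, 128 and 166 CPM (log2 fold change -0.92, SE 0.17, adjusted p = 0.0044). These classical targets thus changed in opposite directions, and neither pair of groups overlapped. Cd44, a hyaluronan receptor, rose from at most 2.6 CPM in Control to at least 11.6 CPM in Pea3 TKO (log2 fold change 3.73, SE 0.78, adjusted p = 0.008). Sostdc1, a secreted inhibitor of Wnt and BMP signals, had a log2 fold change of 1.78 (adjusted p = 7e-04). Bambi, a pseudoreceptor that dampens BMP and TGF-β signals, had a log2 fold change of 1.32 (adjusted p = 0.0056). Apcdd1, a membrane Wnt inhibitor that was picked out here after its values were seen as the fifth gene called higher, was just past the threshold (log2 fold change 1.27, adjusted p = 0.047). Among the genes that fell, Id2 had 363, 430 and 470 CPM in Control and 102, 113 and 119 CPM in Pea3 TKO (log2 fold change -1.92, SE 0.13, adjusted p = 2.6e-05). Tnfrsf19, a receptor of the tumor necrosis factor family, had 200, 218 and 318 CPM in Control and 47.4, 51.5 and 56.5 CPM in Pea3 TKO (log2 fold change -2.24, SE 0.18, adjusted p = 6.6e-05). Fgf20, also named after its values were seen as the fourth gene that fell, was between 3.16 and 4.49 CPM in Control and at 0, 0 and 0.294 CPM in Pea3 TKO (adjusted p = 0.0085). Fgf20 passed the low-count filter only through its Control libraries and Cd44 only through its Pea3 TKO libraries. The counts of called genes thus describe this list and do not support a shift. With the Y-linked covariate 2 genes of this list were called higher and 2 lower, and Myc (log2 fold change -0.58, adjusted p = 0.12), Cd44 (3.7, adjusted p = 0.062) and Bambi (1.32, adjusted p = 0.068) were not among them.

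**Figure D5:**
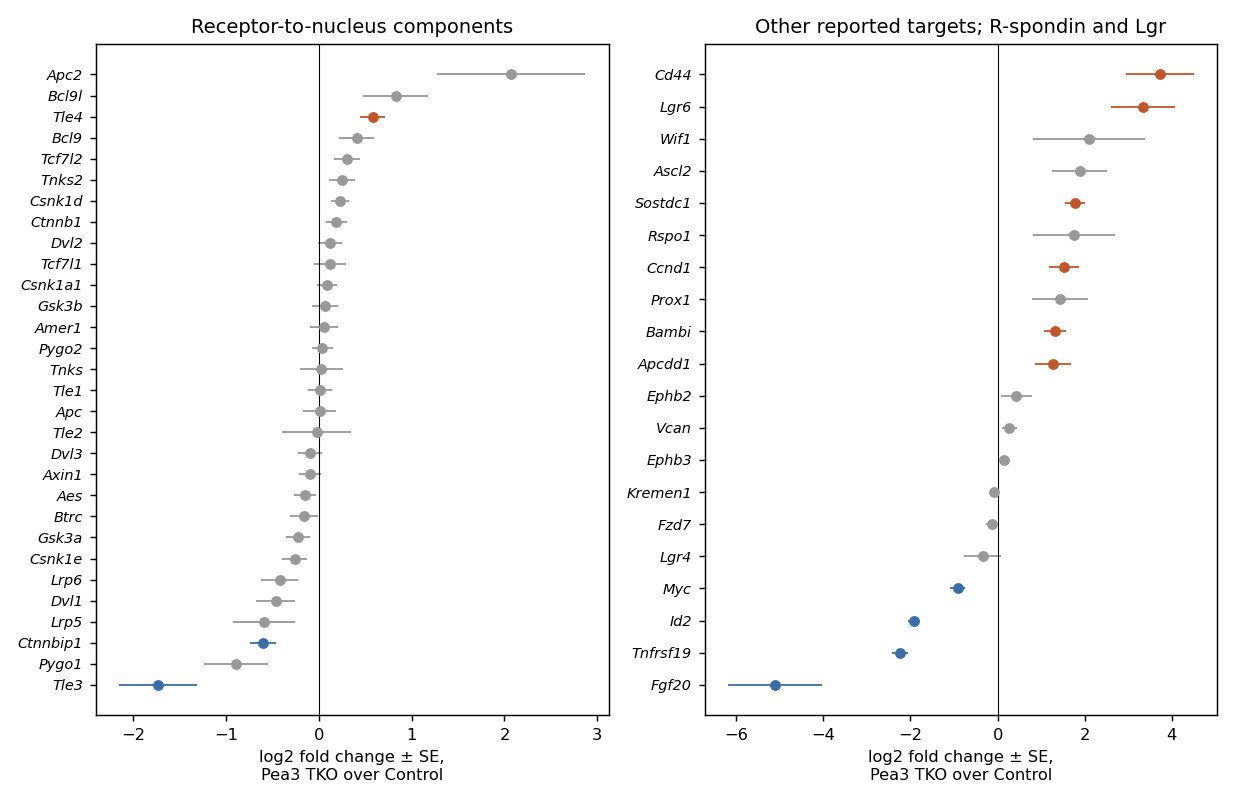
Log2 fold change ± SE of Pea3 TKO over Control (horizontal axes) for the 30 receptor-to-nucleus components on the left and for the tested genes among the other reported targets, the R-spondins and the Lgr genes on the right, in color where the adjusted p was under 0.05. On the left 3 genes are in color, between Tle3 (-1.73) and Tle4 (0.58), whereas on the right the colored genes run from Fgf20 (-5.11) to Cd44 (3.73). Fgf20 had 0, 0 and 5 counts in the Pea3 TKO libraries.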

How the data were processed

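RNA from laser-captured E14.5 buds was amplified and sequenced, and the authors deposited raw counts of reads per gene symbol, 1 table per library, without normalization. The submitters' processing notes name bcl2fastq 2.17, STAR 2.5.2b, featureCounts 1.5.0-p3 and DESeq with build mm10. The annotation and the use of strand are not given in the sources used here. Genes were kept by filterByExpr with its defaults (a minimum count of 10, here 0.628 CPM, in 3 libraries), which left 13087 of 23420. Counts were scaled by TMM and compared by the quasi-likelihood test of edgeR 4.0.16 (R 4.3.3) with no term but condition, and p-values were adjusted over all genes tested by the Benjamini-Hochberg method. The SE was taken from the log2 fold change and the F statistic. Lengths and positions came from GENCODE M21 by symbol.

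The members, gene lists and ratios were chosen with earlier results of these data known. Named genes were all members, the targeted genes, the R-spondin and Lgr list, the 6 smallest p-values of each other pathway list, Ctnnb1, Tcf7l1, Tcf7l2, Ccnd1 and Myc, and the 3 genes most correlated with Axin2. Scripts were tested on simulated counts. Alternatives were DESeq2 1.42.0, the edgeR exact test, RLE and upper quartile scaling, other filters, the replicate number as a block, a Y-linked covariate and leaving out each library. Pea3 TKO replicate 3 alone against Control was added after seeing the data. No libraries of a group agreed within sampling noise (chi-square per degree of freedom at least 15.5). Confidence intervals come from the quasi-likelihood fit and include the spread between samples, whereas the floor of 3 counts covers counting error only.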

Additional observations from a re-analysis of the deposited data

How the results depend on the processing

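Across 15 alternatives, Nkd2 (log2 fold change from -3.03 to -2.52) and Sp5 (from 4.12 to 5.16) kept their direction and their call. With the Y-linked covariate, calls over all genes fell to 492 higher and 286 lower, members to 1 higher and 1 lower, receptor-to-nucleus genes to 0 higher and 0 lower and other targets to 2 higher and 2 lower. Pea3 TKO replicate 3 alone against Control, added after seeing the data, gave 310 higher and 285 lower over all genes, 1 and 1 for the members, 0 higher for the R-spondin and Lgr genes, 0 and 0 for the receptor-to-nucleus genes, and 1 higher and 2 lower for the other targets. That comparison has fewer samples, and for the covariate the cause was not tested. DESeq2 and the exact test each called 2 receptor-to-nucleus genes higher.

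Without 1 library at a time, calls over all genes ranged from 1143 to 1930 higher, the lowest without Control replicate 2, and from 824 to 1417 lower, the lowest without Control replicate 3. Members ranged from 1 to 2 in each direction, receptor-to-nucleus genes from 1 to 3 lower and other targets from 4 to 5 higher. Directions reversed for genes that were not called. Lgr5 ranged from -0.83 to 0.03 across fits without 1 library, above 0 without Pea3 TKO replicate 3. Lgr4 was at 0.41 with the covariate and at 0.43 in the added comparison, and Tcf7l1 at -0.04 in both. Across fits without 1 library Tcf7l1 ranged from -0.05 to 0.21 and Eml6 from -0.37 to 4.28, both below 0 without Pea3 TKO replicate 1.

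Whether the replicate numbers pair the samples is not given in the labels, and 3 libraries per group are too few to decide it. Deviations of same-numbered libraries correlated at 0.144, -0.064 and 0.045. The value for the libraries numbered 1 was the highest of any pair. The next highest was that of Control replicate 2 with Pea3 TKO replicate 3 (0.119). A block for the replicate number gave 1769 genes higher and 1422 lower, and 2 members were called in each direction. Levels under 3 counts in a library (0.169 to 0.21 CPM), such as those of Rspo4 in every library, Rspo2 and Notum in 5 libraries each and Lef1 in Control replicate 2, could not be resolved.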
